A study of Arabidopsis thaliana with 16 samples.

Results

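Most open chromatin of Arabidopsis lies close to a gene. The regions described here are the exception, namely 3723 of 65351 transposase hypersensitive sites (THSs, short stretches of DNA that the Tn5 transposase cuts often). Their midpoints lie more than 2000 bp from the nearer end of every protein-coding gene, outside 5 windows of 31.1 Mb in all around the centromeres. Another 1016 THSs were as far from a gene but within those windows, and were not counted as distal THSs. The rule used position alone and no measured value.

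The values come from ATAC-seq on nuclei captured by INTACT, in which a tag on the nuclear envelope is biotinylated and pulled down with streptavidin beads, from seedlings 3 days old under continuous light. All lines carried ACT2pro::BirA, a biotin ligase made throughout the plant, and a nuclear tagging fusion under a promoter that stands for the cell state. The promoter was AtML1 for protodermal cells (Proto, 3 libraries), SPCH for meristemoid mother cells (MMC, 3 libraries), MUTE for meristemoids (M, 4 libraries), FAMA for guard mother cells (GMC, 3 libraries) and GC1 for guard cells (GC, 3 libraries). A state is therefore the set of nuclei in which a promoter was active, and neighbouring states can share nuclei. Each plant also held an additional copy of its driver promoter, whose reads cannot be told apart from those of the native locus.

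Stomata arise from protodermal cells through a set order of states, in which SPCH starts the lineage, MUTE ends the asymmetric divisions of the meristemoid and FAMA drives the last steps to the pair of guard cells. Open sites far from a gene can be enhancers, promoters of genes that do not code for protein, or copies of transposons and other repeats. In a compact genome such as that of Arabidopsis they are few.

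Values are scaled cutcounts, that is, transposition events on a THS divided by a size factor for its library. Cutcounts on all THSs lay between 3412226 and 13596509 per library, of which 152580 to 657128 fell on the distal THSs. The 500 THSs with the most cutcounts took 9.50% (MMC replicate 3) to 24.8% (M replicate 1) of a library. This share was 19.0% to 24.3% in the 6 GMC and GC libraries, and 10.5% in M replicate 4. Upstream of each driver gene, the THS of most cutcounts was higher in every library of its own line than in the other lines, for 5 of 5 drivers. Since each line held an additional copy of that promoter, this tells the line of a library and cannot tell its cell state.

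Several sequences show what kinds of DNA these are, and the results below return to them. Each is the plus strand of TAIR10, whole or, for THS_45043, THS_12247 and THS_33390, its middle 150, 300 and 150 bases. Capitals mark exact words on either strand, namely GAGAGAGA (GA repeat), AGATAA (known as the GATA site, also counted with T as its first base, G as its last, or both) and TAAATGCA or TAAATGTA (L1 box). THS_33855 and THS_45043 lie upstream of driver genes, THS_19967, THS_12247 and THS_23465 were higher in MMC or M, THS_20662 and THS_17814 were higher in GMC and GC, and THS_33390 lies at a microRNA gene.
THS_33855 (chr3:8720376-8720532): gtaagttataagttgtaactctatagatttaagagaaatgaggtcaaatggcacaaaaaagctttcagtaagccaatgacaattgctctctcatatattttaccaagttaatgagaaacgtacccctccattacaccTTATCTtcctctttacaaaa
THS_45043 (chr4:11552778-11552927): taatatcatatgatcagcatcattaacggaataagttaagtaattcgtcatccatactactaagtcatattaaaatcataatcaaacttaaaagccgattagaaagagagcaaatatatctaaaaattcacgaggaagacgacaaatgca
THS_19967 (chr2:8016642-8016791): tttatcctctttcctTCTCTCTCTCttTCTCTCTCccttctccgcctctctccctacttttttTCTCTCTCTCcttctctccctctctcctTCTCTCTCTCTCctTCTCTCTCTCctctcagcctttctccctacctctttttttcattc
THS_12247 (chr1:23021822-23022121): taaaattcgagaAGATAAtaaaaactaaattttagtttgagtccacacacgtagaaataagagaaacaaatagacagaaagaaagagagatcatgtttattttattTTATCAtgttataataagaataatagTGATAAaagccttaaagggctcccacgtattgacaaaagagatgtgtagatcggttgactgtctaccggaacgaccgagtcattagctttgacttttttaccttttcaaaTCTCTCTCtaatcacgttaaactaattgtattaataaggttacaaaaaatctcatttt
THS_23465 (chr2:13231574-13231831): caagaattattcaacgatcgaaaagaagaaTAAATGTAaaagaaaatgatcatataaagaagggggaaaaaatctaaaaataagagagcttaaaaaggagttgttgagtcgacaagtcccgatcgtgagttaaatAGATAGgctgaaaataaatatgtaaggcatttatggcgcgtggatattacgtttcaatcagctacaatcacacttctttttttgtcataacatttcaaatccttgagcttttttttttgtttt
THS_20662 (chr2:9192832-9192981): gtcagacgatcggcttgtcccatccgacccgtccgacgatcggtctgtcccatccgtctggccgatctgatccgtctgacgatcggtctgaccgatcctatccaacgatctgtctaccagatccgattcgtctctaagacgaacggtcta
THS_17814 (chr2:16748-16904): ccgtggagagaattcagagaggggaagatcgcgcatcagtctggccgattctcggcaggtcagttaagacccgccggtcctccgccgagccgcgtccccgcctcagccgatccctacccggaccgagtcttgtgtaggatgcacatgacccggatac
THS_33390 (chr3:8107812-8107961): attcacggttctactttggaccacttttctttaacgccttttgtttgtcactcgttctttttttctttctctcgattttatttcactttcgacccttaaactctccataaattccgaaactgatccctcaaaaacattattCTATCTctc
THS_19967 held 10 overlapping matches to the GA repeat and no other word of the search. THS_20662 and THS_17814 held none of the words.

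The distal THSs were spread over the 5 chromosomes, from 574 on chromosome 3 to 1052 on chromosome 1. Their median distance to a protein-coding gene was 2763 bp and the longest was 18861 bp. The nearest gene lay downstream of the THS, which is to say that the THS was upstream of the gene, in 2667 cases, and the THS was beyond the end of the gene in 1056. They filled 1198 spaces between protein-coding genes, with a median length of 6160 bp. A space held a single distal THS in 435 cases and 5 or more in 256. The fullest space, between MRN1 and CYP71A16 on chromosome 5, held 25 in 19652 bp. Distal THSs had the same median length as all others, 230 bp, a lower median GC content (32.6% against 34.9%) and a lower median level (21.9 against 24.9 scaled cutcounts per 100 bp). The level was lower in 16 of 16 libraries.

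At the edge of the rule the members resembled their neighbours just beyond it in level. The 173 distal THSs within 50 bp beyond the limit of 2000 bp had a median of 22.7 scaled cutcounts per 100 bp, and the 154 THSs within 50 bp short of it, outside the windows, had 23.6.

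Distal THSs took a similar part of every library. Their share of all scaled cutcounts was 4.72% to 5.02% for the Proto libraries, 4.45% to 4.85% for MMC and 4.47% to 4.83% for M. It was 4.45% to 4.55% for GMC and 4.38% to 4.49% for GC. Proto replicates 1 and 2 were the highest, Proto replicate 3 lay among the MMC and M libraries, and GC replicate 1 was the lowest. The mean of the 7 MMC and M libraries was 0.19 percentage points above that of the 6 GMC and GC libraries, which is about the spread within MMC and M (SD 0.17). The sign of this difference turned to −0.070 when the 500 highest THSs were left out of the total. It is given with no test.

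**Figure D1:**
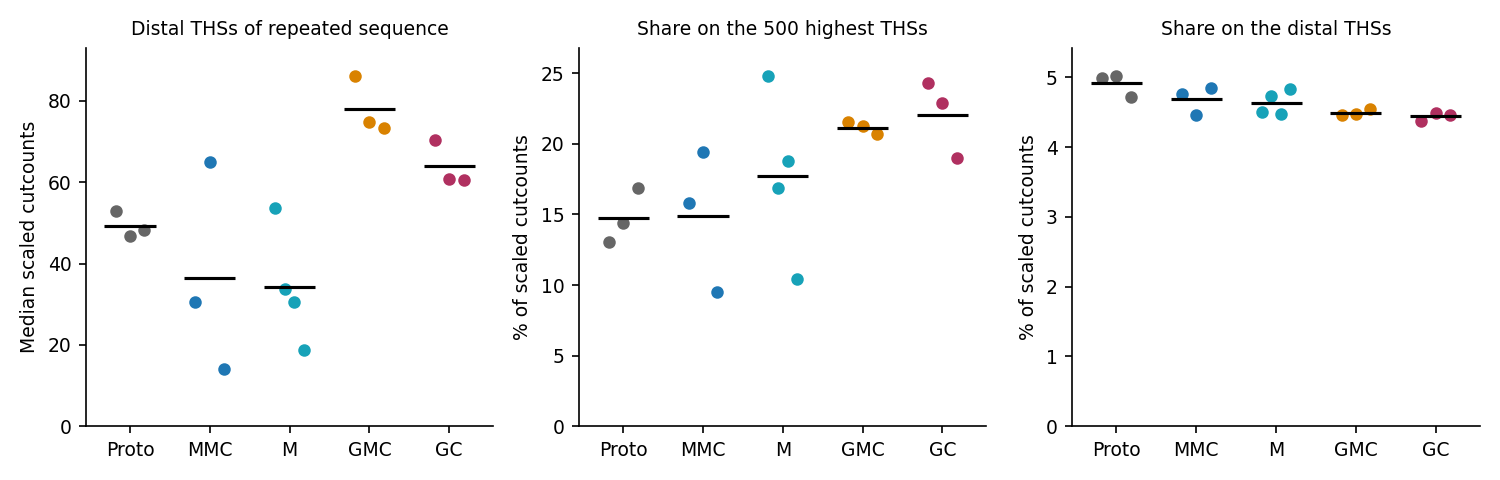
Each point is a library and each black line the mean of a state. The left panel shows the median scaled cutcounts of the 47 distal THSs made mainly of repeated sequence, which was lowest in MMC replicate 3 (14.0) and highest in the GMC libraries (73.3 to 86.2). The middle panel shows the percentage of scaled cutcounts on the 500 highest THSs, which ran from 9.50% to 24.8%. The right panel shows the percentage on the 3723 distal THSs, which stayed between 4.38% and 5.02%.

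Short words that transcription factors are known to read were in some cases rarer and in others more common here than among all THSs. The GA repeat, read by BPC proteins, was in the middle 150 bp of 2.28% of the distal THSs (95% Wilson interval 1.85% to 2.81%) and of 3.64% of all THSs. Site II elements (TGGGCC), known from promoters of genes for ribosomes and growth, were in 7.04% (6.26% to 7.90%) and in 9.55% of all THSs. GATA sites were in 37.5% (36.0% to 39.1%) and 34.9%, and L1 boxes, read by ATML1 and related epidermal factors, in 2.98% (2.48% to 3.58%) and 2.33%. The G-box (CACGTG) was in 5.94% and 5.86%, and the telo-box (AAACCCTA) in 1.34% and 1.66%. Intervals cover counting error only, and neighbouring THSs are not independent.

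Genes that do not code for protein were found more often at distal THSs than at THSs in general. The midpoint lay in a non-coding gene or up to 1000 bp upstream of its start for 674 distal THSs (18.1%, interval 16.9% to 19.4%), against 11.2% of all THSs. Of these, 416 were at other non-coding RNA genes, 194 at pseudogenes, 49 at microRNA genes, 8 at tRNA genes, 5 at snRNA, snoRNA or rRNA genes and 2 at annotated transposable elements. The annotation used holds almost no transposable elements (6 of all THSs lay in one), so overlap with transposons could not be described. A pseudogene counted as such an element only where its annotated note named it as one, and unlabelled elements among the pseudogenes were not searched for. MicroRNA genes made up 1.32% (0.997% to 1.74%) against 0.396% of all THSs, and pseudogenes 5.21% (4.54% to 5.97%) against 2.45%. The rule itself removed THSs near protein-coding genes, so the other shares had to rise in part.

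Which distal THSs differed between all states was asked with a test of the 5 state means. Only 2 of 3723 passed an adjusted p of 0.05 (limma), and 0.0275% of all THSs did. Both lie upstream of genes whose promoters drove the INTACT tag, FAMA and ATML1. At an unadjusted p under 0.05 there were 717 distal THSs (19.3%, against 24.9% of all THSs). Without M replicate 1 the count over the 5 means was 783 of 3723, against 17272 of all 65351 THSs. Without MMC replicate 2 it was 341 against 9422, and without MMC replicate 3 it was 137 against 3593.

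THS_33855, 2243 bp upstream of FAMA, which encodes the bHLH factor of the last division, was open in a single state. Its scaled cutcounts were 208, 229 and 204 in GMC. Proto libraries had 26.5, 22.2 and 13.7, MMC libraries 14.4, 20.7 and 4.67, M libraries 29.8, 7.83, 36.8 and 17.1, and GC libraries 20.6, 25.7 and 25.3. The GMC libraries stood far above the other 13, which overlapped among themselves. The level rose from M to GMC by 3.37 on the log2 scale (SE 0.42, limma adjusted p = 0.00037) and fell by 3.11 from GMC to GC (SE 0.45, adjusted p = 0.0048). The test of 5 means gave an adjusted p of 0.00016. GMC nuclei came from the FAMApro line, and the study's plasmid list gives no length for that promoter, so native and transgene copies cannot be told apart here.

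THS_45043, 2186 bp upstream of ATML1, which encodes the homeodomain factor that marks the outer cell layer, was most open in protoderm. Proto libraries had 351, 336 and 282 scaled cutcounts. Below them, MMC had 128, 124 and 137, M had 101, 150, 137 and 205, GMC had 99.7, 106 and 93.7, and GC had 112, 117 and 86.7. The Proto libraries did not overlap the other 13, of which M replicate 4 was the highest. The test of 5 means gave a limma adjusted p of 0.0028, and 0.12 and 0.11 without Proto replicate 1 and Proto replicate 2. Proto to MMC alone gave an adjusted p of 0.081. Proto nuclei came from the AtML1pro line. The plasmid list gives that promoter's length but not the point it is counted from. Counted from the annotated gene start it would hold all of this THS, and counted from the start codon none of it, so here too the copies cannot be told apart.

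**Figure D2:**
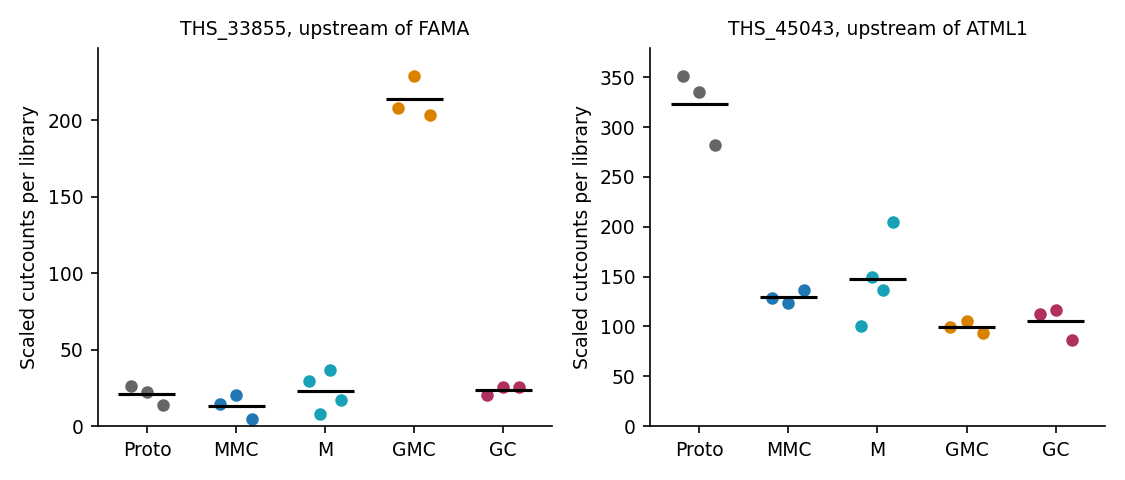
Each point is a library, each black line the mean of a state, and the y axis gives scaled cutcounts. THS_33855 was at 204 to 229 in GMC and at most 36.8 elsewhere, and THS_45043 was at 282 to 351 in Proto and at most 205 elsewhere.

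Successive states gave few calls except from M to GMC. From Proto to MMC and from MMC to M 0 distal THSs passed, and 1 and 0 with edgeR. The background of adjusted calls was 0.00765% and 0.00459% of all THSs. At an unadjusted p under 0.05 there were 280 and 126 (7.52% and 3.38%, against 7.37% and 2.58% of all THSs). Without MMC replicate 2 the count of adjusted calls for Proto to MMC was 43, against 698 of all 65351 THSs. From GMC to GC 73 were at an unadjusted p under 0.05 (1.96%, against 1.89% of all THSs). Of these 1 passed after adjustment, THS_33855, against 0.00765% of all THSs. That call was lost without GMC replicate 2 and without any of the 3 GC replicates.

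From M to GMC 123 distal THSs rose and 144 fell (limma adjusted p under 0.05), 3.30% and 3.87% against 4.79% and 5.87% of all THSs. These counts rest on single libraries. They came to 1 in all, THS_33855, without M replicate 2, 3 or 4 or without any of the GMC replicates, to 1170 without M replicate 1, and to 426 and 632 without MMC replicates 2 and 3. Leaving out any Proto or GC replicate left 136 to 165. Over all 65351 THSs the count was 25208 without M replicate 1, and 11181 and 15634 without MMC replicates 2 and 3.

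The called members with the largest fall from M to GMC and no overlap of libraries lay upstream of CLE4, a small signalling peptide gene, upstream of XTH16, a gene for a wall xyloglucan enzyme, and near the non-coding RNA gene AT3G08120. THS_23465 of CLE4, 6319 bp from the gene, had 73.9, 106, 200 and 256 scaled cutcounts in M and 22.2, 73.1 and 46.9 in GMC. The lowest M library was barely above the highest GMC library. The fall was 1.71 (SE 0.40, limma adjusted p = 0.029), and 20 of 29 alternatives kept it under 0.05. THS_33729 of XTH16 fell by 1.33 and THS_37352 fell by 1.32, both with an adjusted p of 0.028. Among the called members whose libraries did not overlap, the largest rises after THS_33855 were THS_57789 in the pseudogene AT5G40605 (1.98, adjusted p = 0.037) and THS_42712 near the non-coding RNA gene AT4G06040 (1.90, adjusted p = 0.043). The latter held under 0.05 in 12 of 29 alternatives, and 100% of its 35-base words recur elsewhere in the genome.

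Early states, MMC and M, were compared with late states, GMC and GC, over 7 and 6 libraries. Of the 3723 distal THSs 927 passed (24.9%, limma adjusted p under 0.05), fewer than the 33.3% of all THSs. Of these 474 were higher in MMC and M (12.7%, against 16.6% of all THSs) and 453 were higher in GMC and GC (12.2%, against 16.7%). The libraries of the early and late states did not overlap at 83 distal THSs (2.23%, against 3.02% of all THSs). Among the 83, 34 were higher early (0.913% of distal THSs, against 0.978% of all THSs) and 49 higher late (1.32%, against 2.04%). The median distal THS differed by −0.05 on the log2 scale and the median of all THSs by −0.02.

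The count changed most with a covariate for how concentrated a library is. With the share on the 500 highest THSs as a covariate 1 of the 927 remained, THS_33855, while all 927 kept their direction. Over all 65351 THSs 10 passed with it. With the covariate the log2 difference was 0.93 at THS_19967, 0.72 at THS_04400 and −1.17 at THS_20662, which are described below. The part of this share in the result was not tested further. The count was 427 without MMC replicate 3, 468 without GMC replicate 1, 536 and 550 without GC replicates 1 and 2, 561 without M replicate 4, and 1483 without M replicate 1. Over all 65351 THSs it was 10570 without MMC replicate 3 and 31613 without M replicate 1. Giving every library the same total shifted the median of all THSs to −0.13 and the split to 322 higher early and 571 higher late. The GC correction gave 370 and 561.

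Direction went with level. All THSs were put in 5 classes of equal size by mean level. The lowest class held 926 distal THSs, with 2 higher in MMC and M and 169 higher in GMC and GC. The highest class held 620, with 292 higher in MMC and M and 5 higher in GMC and GC. The classes between had, from low to high, 12 and 119, 43 and 114, and 125 and 46. Other THSs ran the same way, with 0.593% higher early and 20.3% higher late in the lowest class and 49.5% and 2.77% in the highest. Across the 3723 distal THSs Spearman's rho between level and log2 difference was 0.64, and 0.59 across the 61628 others. These are descriptions across regions that share the same 16 libraries.

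**Figure D3:**
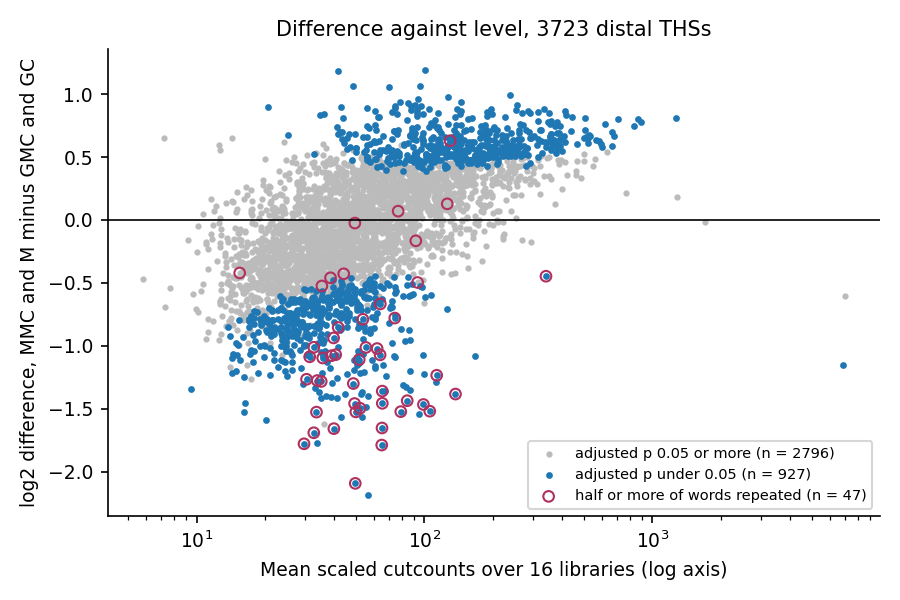
Each point is a distal THS, with its mean scaled cutcounts over 16 libraries on a log axis and the log2 difference of MMC and M minus GMC and GC on the y axis. Blue points passed an adjusted p of 0.05 (927) and ringed points are the 47 of which at least 50% of 35-base words are repeated. Calls above 0 sit at high levels and calls below 0 at low levels.

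GC content drew a like line at its upper end. Of the 96 distal THSs above 45% GC 9 were higher in MMC and M and 49 higher in GMC and GC, with a median of −0.74. Of the 6061 other THSs above 45% GC 2.84% and 55.3% were. Of the 775 distal THSs between 35% and 40% GC 150 were higher early and 89 higher late. Of the 16649 other THSs in that range 4079 and 2040 were, so both sets leaned early. Below 30% GC calls leaned late at the 997 distal THSs (64 early, 102 late) and early at the 11084 others (1162 and 856). The medians there were −0.19 and −0.07. Spearman's rho between GC content and log2 difference was 0.13 across all distal THSs and −0.16 across the others. No test was made between the sets.

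The distal THSs highest in MMC and M with no overlap of libraries were 5 by the rule on fold. THS_19967, 3740 bp upstream of AT2G18490, is the GA-rich stretch printed above. MMC libraries had 58.4, 64.9 and 87.1 scaled cutcounts, and M libraries 51.8, 55.6, 79.7 and 69.6. GMC libraries had 22.2, 32.8 and 29.5, GC libraries 24.4, 49.1 and 34.5, and Proto libraries 32.6, 36.8 and 48.2. Proto overlapped the late states, and the early libraries stood above both. The log2 difference was 1.07 (SE 0.19, limma adjusted p = 0.0040).

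THS_04399 and THS_04400 are neighbours upstream of AT1G19230, 2395 and 2014 bp away. At THS_04400 the scaled cutcounts were 116, 101 and 156 for MMC, and 96.0, 125, 104 and 167 for M. GMC had 62.8, 69.8 and 53.0, GC had 60.9, 70.2 and 56.0, and Proto had 82.5, 90.4 and 89.8. Proto lay between the early and late libraries and overlapped neither. The log2 difference was 0.96 (SE 0.16, limma adjusted p = 0.0040), and 0.90 at THS_04399.

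THS_12247 lies 2478 bp upstream of WRKY6, a factor of senescence and phosphate responses. Its scaled cutcounts were 170, 148 and 260 for MMC, with 114, 178, 247 and 225 for M. GMC had 60.3, 105 and 87.6, and GC had 112, 112 and 113. M replicate 1 was only just above the highest GC library. The log2 difference was 0.94 (SE 0.19, limma adjusted p = 0.0046). THS_12886, 3755 bp beyond AT1G64385, differed by 0.88.

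Of the called distal THSs with no overlap between early and late libraries, the 5 with the largest difference toward GMC and GC lay at pseudogenes. With overlap allowed, THS_33855, which was high in GMC alone, had the largest, −2.19. THS_20662 lies inside the pseudogene AT2G21460. Its scaled cutcounts were 50.5, 52.5 and 52.0 for GMC, with 70.3, 43.3 and 49.1 for GC. Against these, MMC had 13.5, 25.6 and 7.78, M had 31.7, 24.3, 8.17 and 8.28, and Proto had 43.8, 22.2 and 36.4. The late libraries were closely grouped and the early ones spread between 7.78 and 31.7. The log2 difference was −1.77 (SE 0.30, limma adjusted p = 0.0040), and 5.17% of its 35-base words recur in the genome. THS_17814 lies near the start of chromosome 2 by the pseudogene AT2G01024, and 100% of its words recur. The GMC libraries had 80.0, 87.8 and 80.5 scaled cutcounts, and the GC libraries 85.3, 85.4 and 60.6. The MMC libraries had 28.7, 58.1 and 1.56, and the M libraries 46.1, 24.3, 16.3 and 9.39. MMC replicate 2 came close to the lowest GC library and MMC replicate 3 was near 0. The log2 difference was −2.09 (SE 0.57, adjusted p = 0.017). THS_17815, THS_55904 and THS_06479 differed by −1.79, −1.52 and −1.52, and 100%, 100% and 83.9% of their words recur. Each of these 5 passed in 28 of 29 alternatives, and the covariate ended the call.

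**Figure D4:**
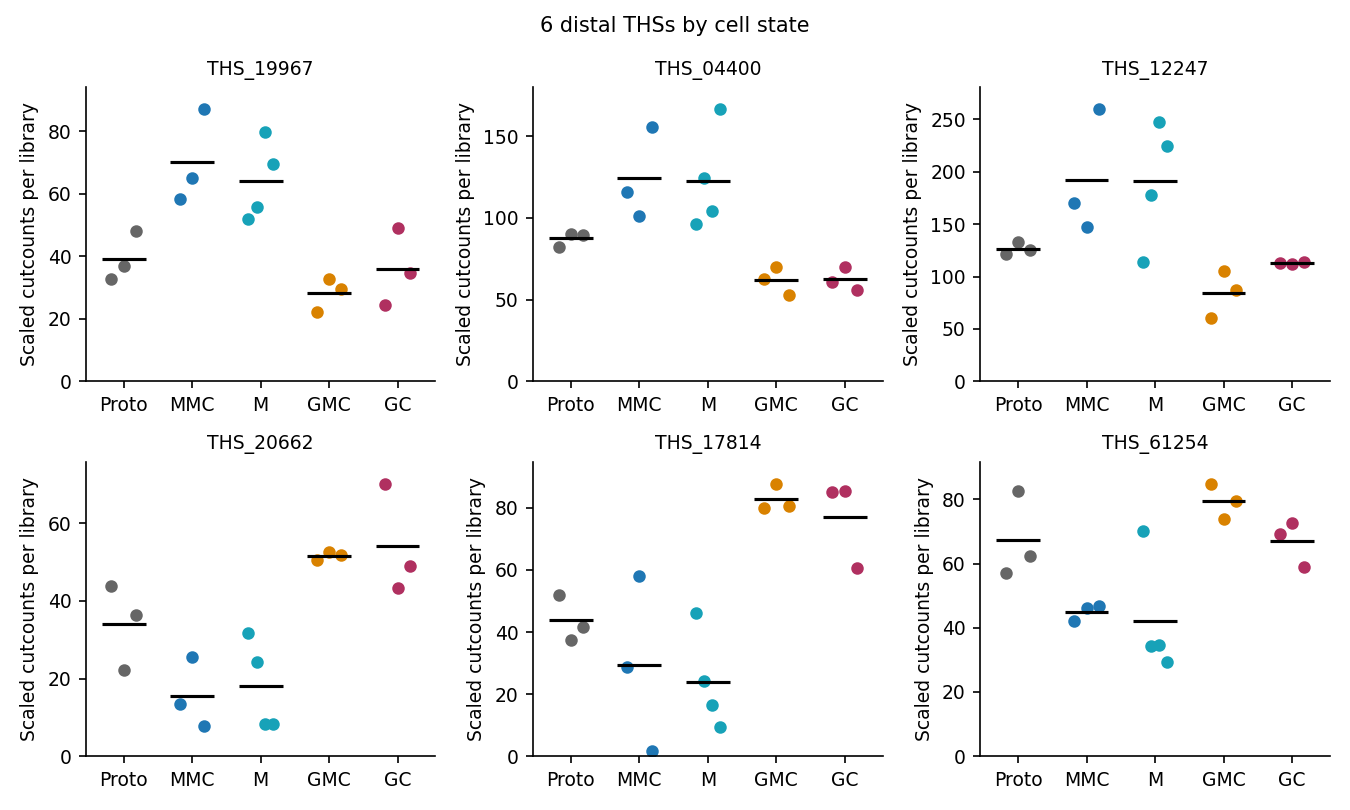
Each point is a library, each black line the mean of a state, and the y axes give scaled cutcounts from 0. THS_19967, THS_04400 and THS_12247 were higher in MMC and M than in GMC and GC. THS_20662, THS_17814 and THS_61254 were higher in GMC and GC, and the early libraries of THS_17814 ran from 1.56 to 58.1.

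Calls at pseudogenes ran mostly toward GMC and GC. Of 194 distal THSs at pseudogenes 17 were higher in MMC and M and 86 higher in GMC and GC, with a median of −0.51. Pseudogene THSs of the whole table behaved alike, with 182 and 638 of 1601 and a median of −0.36. Of 416 distal THSs at other non-coding RNA genes 73 were higher early and 37 higher late (17.5% and 8.89%, against 17.1% and 14.8% for this class among all THSs), and of the 3049 with no such gene 371 and 322. No test was made between classes.

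**Figure D5:**
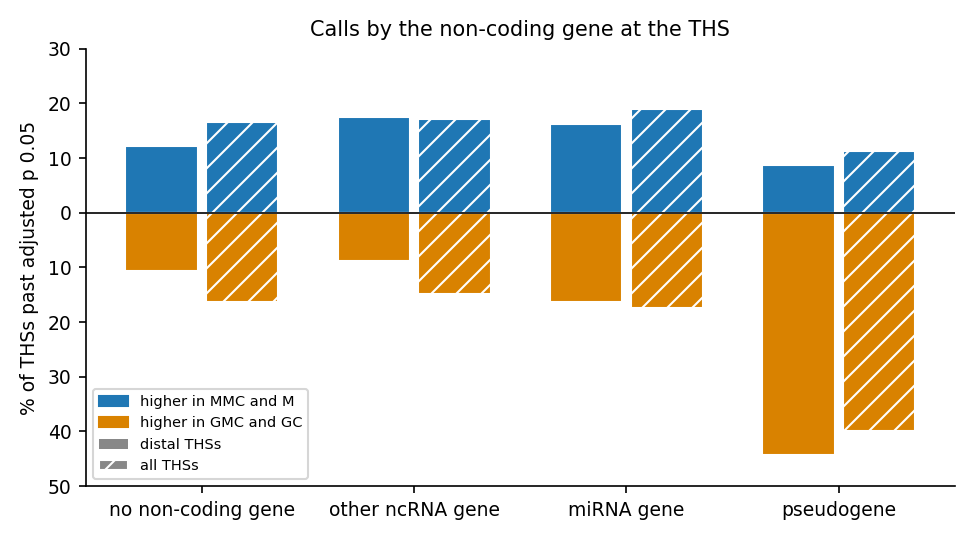
Bars above 0 give the percentage of THSs called higher in MMC and M and bars below 0 the percentage called higher in GMC and GC, for distal THSs (plain) and all THSs (hatched) by the non-coding gene at the THS. At pseudogenes 8.76% and 44.3% of distal THSs were called, against 12.2% and 10.6% where there was no non-coding gene.

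A small group was made mainly of repeated sequence. At least 50% of the 35-base words, the read length used, recurred in the 5 chromosomes for 47 distal THSs, of which 35 lay at pseudogenes, 7 at other non-coding RNA genes and 5 at none. Of these 37 were higher in GMC and GC and 1, THS_05915, higher in MMC and M, with a median of −1.10. Their median level was 30.5, 64.9 and 14.0 scaled cutcounts for the MMC libraries, and 53.8, 33.7, 30.7 and 18.8 for the M libraries. It was 73.3 to 86.2 for GMC, 60.6 to 70.3 for GC, and 46.7 to 53.0 for Proto. MMC replicate 2 lay among the GC libraries. MMC replicate 3 and M replicate 4, in which the 500 highest THSs took the smallest shares, were lowest. The 571 THSs of the whole table with this much repeated sequence had 62 higher early and 352 higher late, with a median of −0.86. A read that is one of these words cannot be assigned to a copy by itself, and a pair only where its mate lies in unique sequence. Among the 159 pseudogene members with less repeated sequence 17 were higher early and 56 higher late, with a median of −0.36.

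The members farthest from a protein-coding gene belong to this group. THS_17816, THS_17817 and THS_17815, at 18861, 15525 and 13498 bp, lie at the start of chromosome 2, and 100%, 87.5% and 100% of their words recur. All were higher in GMC and GC, with log2 differences of −1.47, −1.50 and −1.79 (limma adjusted p = 0.0075, 0.023 and 0.0068). By distance, 23.8% of distal THSs at 2000 to 3000 bp, 25.8% at 3000 to 5000 bp and 29.7% of the 283 beyond 5000 bp were called. Each of these lay below the 33.3% of all THSs. Calls toward GMC and GC were 258 of 2244, 147 of 1196 and 48 of 283, and the median was −0.04, −0.07 and −0.15. Early and late libraries did not overlap at 43 of 2244, 24 of 1196 and 16 of 283, against 3.02% of all THSs. Only the share beyond 5000 bp was above that of all THSs. The 48 late calls beyond 5000 bp include every member of the repeated group at that distance except THS_44789 (difference −0.02, limma adjusted p = 0.92). Whether late calls rise with distance among members with less repeated sequence was not tested.

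The most open distal THSs per length were in part copies of organelle DNA. THS_05165 in the pseudogene AT1G21945 averaged 6977 scaled cutcounts, and 35.2% of its words are in the chloroplast genome. Its early libraries ran from 1024 to 17486 and its late ones from 4203 to 13245, with full overlap (limma adjusted p = 0.34). THS_19930, at a pseudogene AT2G18323, averaged 6850, and 43.5% of its words are in the mitochondrial genome. It was higher late (difference −1.15, adjusted p = 0.036, under 0.05 in 17 of 29 alternatives). Within such words organelle reads cannot be told apart from nuclear ones. THS_34532 and THS_20863 are unique sequences with early medians of 654 and 925 scaled cutcounts and late medians of 364 and 521, and both were higher early (0.66 and 0.80, adjusted p = 0.020 and 0.011). THS_39809, at the pseudogene AT3G60935, differed by 0.21 (adjusted p = 0.40).

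MicroRNA genes supplied 49 distal THSs at 30 genes. MicroRNAs of plants guide the cleavage of messenger RNAs, and their genes have promoters of their own. The mature RNAs of the genes described here are given as read from the RefSeq TAIR10.1 annotation, to show which genes give the same RNA. Bases 2 to 8, the seed, are in capitals.
miR156a-5p: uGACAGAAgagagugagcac
miR156c-5p: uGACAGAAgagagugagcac
miR156e: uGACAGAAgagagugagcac
miR160a-5p: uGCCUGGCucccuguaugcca
miR161.1: uGAAAGUGacuacaucggggu
miR167a-5p: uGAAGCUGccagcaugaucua
miR394a: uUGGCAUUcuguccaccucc
miR858a: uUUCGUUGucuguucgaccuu
MIR156a, MIR156c and MIR156e give the same 5p RNA, which targets SPL factors of the juvenile phase. MIR160a and MIR167a target auxin response factors, MIR394a the F-box gene LCR, MIR161 genes of pentatricopeptide repeat proteins, and MIR858a MYB genes.

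Of the 49, 8 at 6 genes were higher in MMC and M and 8 at 7 genes higher in GMC and GC (16.3% and 16.3%, against 16.6% and 16.7% of all THSs). THS_25588, 171 bp long and holding the MIR160a hairpin, was the strongest. Its scaled cutcounts were 92.3, 74.7 and 90.7 for GMC, with 73.1, 74.9 and 50.6 for GC. Against these, MMC had 24.3, 69.9 and 17.1, M had 46.1, 29.8, 22.5 and 13.3, and Proto had 57.0, 59.0 and 46.2. Only MMC replicate 2 of the early libraries reached the late range. The log2 difference was −1.38 (SE 0.27, limma adjusted p = 0.0049). THS_04700 of MIR394a was also higher late (difference −0.90, SE 0.22, adjusted p = 0.0077), with 16.3 to 39.4 scaled cutcounts in the early libraries and 35.3 to 53.4 in the late ones. A second THS of that gene, THS_04699, differed by −0.81 (adjusted p = 0.048). These members were chosen after their values were seen.

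THS_21716 and THS_21717 of MIR156a were higher in MMC and M, by 0.57 and 0.56 (limma adjusted p = 0.016 and 0.034). At THS_21716 MMC had 145, 102 and 142 scaled cutcounts, M had 89.3, 131, 119 and 172, GMC had 97.3, 99.3 and 73.3, and GC had 90.9, 64.3 and 88.2. Only M replicate 1 overlapped the late libraries. THS_47778 of MIR156c differed by 0.24 (adjusted p = 0.37), and THS_52726 of MIR156e was higher in GMC and GC (−0.52, adjusted p = 0.042). They too were chosen after their values were seen.

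By the rule on cutcounts, the most open microRNA members were at MIR414, MIR167a, MIR779, MIR161 and MIR858a. THS_13699 of MIR414 (0.51, limma adjusted p = 0.024), THS_20897 of MIR779 (0.55, adjusted p = 0.018) and THS_09272 of MIR161 (0.55, adjusted p = 0.039) were higher in MMC and M. The calls held in 23, 23 and 14 of 29 alternatives. THS_33390 of MIR167a, whose midpoint is 185 bp before the annotated gene and whose end overlaps it, had early libraries of 182 to 463 scaled cutcounts and late ones of 164 to 273 (difference 0.48, adjusted p = 0.061). A less open THS of the same gene, THS_33389, was higher late (−0.66, adjusted p = 0.034). THS_15017 of MIR858a did not pass (0.06, adjusted p = 0.81).

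Genes of stomatal development had 14 distal THSs as nearest member, near 6 of 23 genes matched, and 2 were higher early and 1 higher late (21.4% called, against 33.3% of all THSs). ERL1, a receptor kinase for EPF peptides, had THS_63736 at 2759 bp with a difference of 0.52 (SE 0.19, limma adjusted p = 0.034). MYB88, a MYB factor that stops divisions of the guard mother cell, had THS_18326 with 0.51 (adjusted p = 0.031) and THS_18330 with 0.06 (adjusted p = 0.76). The late call was THS_33855 of FAMA, which, as described above, was high in the GMC libraries alone and not in GC. THS_49442 of CYCD5;1, a D-type cyclin, differed by 0.29 (adjusted p = 0.16) and THS_29400 beyond MUTE by −0.29 (adjusted p = 0.12). The calls at ERL1 and MYB88 held in 16 and 18 of 29 alternatives.

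Of the 9 members nearest to 4 of 17 guard cell genes 1 passed, higher early (11.1%, against 33.3% of all THSs). THS_20108, 5342 bp upstream of AHA1, the proton pump of the plasma membrane, had 279 to 688 scaled cutcounts in MMC and M, with a median of 483, and 228 to 357 in GMC and GC, with a median of 274. The difference was 0.69 (SE 0.20, limma adjusted p = 0.013). A neighbour nearer to AHA1, THS_20109, differed by 0.37 (adjusted p = 0.077). The potassium channel genes KAT1 and KAT2 had THS_59433, THS_44170 and THS_44171, whose libraries overlapped throughout (differences −0.08, −0.22 and 0.15, adjusted p = 0.80, 0.38 and 0.51).

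Genes of the epidermis and trichomes had 8 members near 5 of 28 genes, and 2 were higher late (25.0% called, against 33.3% of all THSs). THS_61254 lies 2168 bp upstream of TRY, a small MYB protein that limits trichome fate. Scaled cutcounts were 42.2, 46.2 and 46.7 for MMC, and 70.1, 34.5, 34.7 and 29.3 for M. GMC had 84.9, 73.9 and 79.5, GC had 69.3, 72.5 and 59.1, and Proto had 57.0, 82.8 and 62.5. M replicate 1 lay within the late range and the other 6 early libraries below it. The difference was −0.77 (SE 0.18, limma adjusted p = 0.0071). The other was THS_57979 of GL3, a bHLH factor that promotes trichomes, at −0.61 (adjusted p = 0.023). THS_61253 of TRY (−0.57, adjusted p = 0.086), THS_55547 of TTG1 (0.17, adjusted p = 0.59) and THS_00346 beyond CER1, a wax gene (0.00), did not pass.

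Meristem and flowering genes had 18 members near 9 of 32 genes, 3 higher early and 1 higher late (22.2% called, against 33.3% of all THSs). REV, a homeodomain-leucine zipper factor of leaf polarity, had THS_63318. Scaled cutcounts there were 96.99, 62.0 and 188 for MMC, 56.7, 99.5, 112 and 133 for M, 43.1, 63.2 and 55.0 for GMC, and 46.9, 60.8 and 45.3 for GC. MMC replicate 2 and M replicate 1 lay in the late range. Its difference was 0.94 (SE 0.22, limma adjusted p = 0.0065), while THS_63314, farther from REV, differed by 0.04. AP1, a floral identity gene, had THS_14310 and THS_14312 at 0.52 and 0.50 (adjusted p = 0.035 and 0.043), which held in 13 and 10 of 29 alternatives. FT, the mobile flowering signal, had THS_13139, higher late at low levels (3.11 to 23.6 early and 27.6 to 38.2 late, difference −1.20, adjusted p = 0.014). THS_32316 of BRC1 and THS_22735 of PRS differed by −0.18 and 0.20 and did not pass.

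Auxin and cytokinin genes had the most members, 41 near 12 of 31 genes, with 3 higher early, 8 higher late and a median of −0.27 (26.8% called, against 33.3% of all THSs). AHK4, a cytokinin receptor (WOL), had calls in both directions in 1 space. At THS_18044 MMC had 219, 240 and 507 scaled cutcounts, M had 166, 385, 282 and 412, GMC had 112, 123 and 126, and GC had 146, 185 and 229. The difference was 0.99 (SE 0.21, limma adjusted p = 0.0052). THS_18046, 3785 bp away in a pseudogene, differed by −1.09 (SE 0.25, adjusted p = 0.0067). YUC6, an auxin synthesis gene, had 4 of the late calls, THS_55903, THS_55904, THS_55915 and THS_55916 (−1.36, −1.52, −0.74 and −0.84), and the first 2 of these lie at the pseudogene AT5G25615. AUX1, an auxin importer, had THS_25336 and THS_25338 higher late and THS_25342 higher early (−0.56, −0.63 and 0.69). THS_04587 of MP, an auxin response factor (0.49, adjusted p = 0.063), THS_05541 beyond PIN7 (−0.01) and THS_04394 of ARF19 (0.19) did not pass. Members named here other than the 5 with the most cutcounts of each list were chosen after their values were seen.

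Neighbours in a space did not always move together. In 214 spaces 2 or more distal THSs were called between early and late states, and in 59 of them both directions occurred. Most of the nearest genes also had a THS at their start (midpoint 400 bp upstream to 100 bp downstream), which gave 2926 distal THSs a partner. Of 365 distal THSs higher in MMC and M with such a partner, 174 had a partner called higher early, 6 a partner called higher late and the rest one that was not called. Of 324 higher in GMC and GC the partner was higher early in 67, higher late in 15 and not called in the rest. Start sites as a whole leaned early, with 987 partners called higher early and 104 higher late, counted once for each distal THS. The median level was 21.9 scaled cutcounts per 100 bp at the distal THSs and 27.5 at their partners.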

How the data were processed

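ATAC-seq measured open chromatin in 16 libraries of 5 cell states. According to the study's methods, the authors aligned read pairs with bowtie2 (TAIR10), dropped centromeric reads, took cut positions from the ends of short fragments, merged MACS2 peaks with published open regions and counted cuts per THS. The deposited signal values are these cutcounts divided by the authors' DESeq2 size factors. In every library 100% of values could be divided by 1 fixed step without remainder (tolerance 0.1 of a step). In the table, 1 column of values that matched no library was not used.

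Genes were the 27444 nuclear protein-coding genes of RefSeq TAIR10.1, whose chromosomes hold all THSs. Distances run from the THS midpoint to the nearer gene end. A THS belongs to a non-coding gene if its midpoint lies in the gene or up to 1000 bp upstream of its start. For a transposable element the midpoint must lie in it. Words of 35 bases were counted in the 5 chromosomes and organelle genomes.

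Log2 values with a pseudocount of 1 entered limma 3.58.1 (R 4.3.3; a mean per state, eBayes with trend and robust), with Benjamini-Hochberg adjustment over 65351 THSs and calls at an adjusted p under 0.05. No filter was applied, and 3715 of 3723 members had a mean of at least 10. A log2 difference is on this scale and understates the change of low THSs. The fit was tested on simulated data. Alternatives changed scaling, pseudocount, filter, replicate block, GC correction, libraries and the definition of a member. After the data were seen, edgeR 4.0.16 was run on recovered cutcounts, and M replicates 1 and 4 were left out together. A planned permutation test of the share of cutcounts on members was not used, since these THSs, though picked by position, were proposed as a set with results known.

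Libraries were grouped by label and driver promoter. The study calls its replicates biological, but the labels do not say whether they came from separate plantings, so p-values measure the spread between these libraries. No 2 libraries of a state agreed within counting noise. Pairwise chi-square per THS ran from 1.94 to 45.3. Shares have 95% Wilson intervals, which cover counting error only.

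Named members were, by rule, the 5 in each direction with the largest difference between early and late states whose libraries do not overlap, 3 in each direction from M to GMC, those past the threshold elsewhere, the 5 highest per bp, the 3 farthest from a gene, and the 5 with most cutcounts for each gene list and for microRNA genes. The members, the lists and these rules were chosen with earlier results of these data known. Gene symbols came from RefSeq, with ER, FDH and ACR4 set by hand, and 3 of 134 symbols (BRXL2, RHC1 and EPF3) matched no gene. A result for 1 member is not reported here.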

Additional observations from a re-analysis of the deposited data

Results flagged for a closer look

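In M, the state with 4 libraries, a single library stood apart by Dixon's ratio in 2 of 57 sets of values examined, and chance flags about 1 in 20. At THS_39809, in the pseudogene AT3G60935, M replicate 1 had 535 scaled cutcounts against 902 to 946 in the other 3 (ratio 0.89). At THS_61254, upstream of TRY, M replicate 1 had 70.1 against 29.3 to 34.7 (ratio 0.87), and without that library the early-late difference there kept its direction and passed the threshold. States with 3 libraries were not examined.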

How the results depend on the processing

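Under every alternative in which a difference could be computed, the 927 distal THSs called between early and late states kept their direction, except 11 under cyclic loess. The number called between early and late states was 416 with cyclic loess, 1 with the covariate, 1419 (of 5870) with a distance of 1500 bp, 392 (of 1479) with 3000 bp, 1436 with the windows left in, 531 with distance taken from every annotated gene except transposable elements, and 427 to 1483 without a single library. From M to GMC, where 267 were called, it was 94 with cyclic loess, 1 without trend and robust, 151 with the covariate, 474 with edgeR, 572 without M replicates 1 and 4, 136, 473 and 137 with 3000 bp, the windows left in and every annotated gene, and 1 to 1170 without a single library. Over all 65351 THSs cyclic loess gave 10466 early-late calls and 2365 from M to GMC. The covariate gave 3940 from M to GMC, edgeR gave 11782, and 12791 were called without M replicates 1 and 4.

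For the test of 5 means, which called 2, the number was 4 with the same total, 4 with cyclic loess, 10 with a pseudocount of 5, 181 with the covariate, 47 with edgeR and 415 without M replicates 1 and 4. It was 0, 5 and 1 with 3000 bp, the windows left in and every annotated gene, 1 with both THS ends beyond 2000 bp, and 1 to 783 without a single library. Over all 65351 THSs the test of 5 means called 4332 with the covariate, 979 with edgeR and 9444 without M replicates 1 and 4. Proto to MMC, which called 0, had 1 with the same total, 1 with cyclic loess, 1 with edgeR, 1 without M replicates 1 and 4, 1 with 1500 bp, 2 with the windows left in, 30 with the covariate and 0 to 43 without a single library. MMC to M had 1 with 1500 bp and 0 without any single library. GMC to GC, which called 1, had 2 with the states compared alone, 0 with 3000 bp, 0 with every annotated gene, and 0 to 1 without a single library.

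Correlations of deviations between libraries of the same replicate number ran from −0.22 to 0.40. Replicates 1 of Proto, MMC and M deviated together in part (0.34 for Proto and MMC, 0.23 for Proto and M, 0.40 for MMC and M). Proto replicate 1 did not follow GMC replicate 1 (−0.05) or GC replicate 1 (−0.03). Libraries of unlike number reached 0.63 (MMC replicate 3 and M replicate 4) and −0.67 (MMC replicate 3 and M replicate 1). A replicate block gave 783 calls between early and late states, 19 from M to GMC, 122 in the test of 5 means, 1 from Proto to MMC and 0 from GMC to GC. With a GC correction as well, it gave 3 from M to GMC, 85 in the test of 5 means and 1 from Proto to MMC. Over all 65351 THSs the block alone gave 18545 calls between early and late states, 402 from M to GMC and 3057 in the test of 5 means.

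The difference in the share of cutcounts on distal THSs, 0.19 percentage points, turned to −0.21 with the windows left in and −0.070 without the 500 highest THSs. As a median log2 difference it was −0.00969. Single libraries left out gave 0.16 to 0.23. The share at non-coding genes was 12.8% with a reach of 500 bp.

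Early-late differences changed sign under at least 1 alternative at 15 named THSs, none of them called. Cyclic loess gave −0.47 at THS_39809, −0.14 at THS_49442, −0.20 at THS_18330, −0.0414 at THS_44171, 0.0900 at THS_59433, 0.0670 at THS_44170, −0.21 at THS_63314, −0.0354 at THS_22735, −0.0504 at THS_04587, −0.13 at THS_04394, −0.00345 at THS_33390 and −0.38 at THS_15017. The covariate gave 0.58 at THS_05165, −0.12 at THS_44171, −0.17 at THS_63314 and −0.19 at THS_15017. The same total gave −0.0485 at THS_18330, −0.11 at THS_00346, −0.0700 at THS_63314 and −0.0550 at THS_15017. The GC correction gave −0.0760 at THS_18330, −0.0197 at THS_44171, −0.12 at THS_00346, 0.0195 at THS_05541 and −0.0696 at THS_15017, and with the replicate block −0.0338 at THS_18330, −0.10 at THS_44171, −0.0876 at THS_00346, −0.0201 at THS_63314, 0.0262 at THS_05541 and −0.11 at THS_15017. The block alone gave −0.00406 at THS_15017, edgeR −0.0170 at THS_00346, and leaving out M replicates 1 and 4 0.0229 at THS_05541. Single libraries left out gave −0.21 to 0.0568 at THS_59433, −0.0919 to 0.12 at THS_00346, −0.0492 to 0.16 at THS_63314, −0.11 to 0.0591 at THS_05541 and −0.00406 to 0.17 at THS_15017.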
